A study of Mus musculus with 7 samples.

Results

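The Wnt ligands, their Frizzled receptors and the secreted Sfrp and Dkk inhibitors were followed in mouse embryonic fibroblasts (MEFs) given cardiac reprogramming factors. Members were all genes whose platform symbol is Wnt, Fzd, Sfrp or Dkk followed by a number and, for Wnt, an optional letter. The rule found 37 genes among 19505 named genes: 19 Wnt, 10 Fzd, 4 Sfrp and 4 Dkk genes, each with 1 probe set. RNA was hybridised in 1 colour to Clariom S mouse arrays.

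On 4 arrays the cells had been infected with retroviruses carrying Gata4, Tbx5 (GT) and Mef2c. Mef2c was given as isoform 2 fused to the MyoD transactivation domain (GT/M2TAD), isoform 6 (GT/M6), isoform 2 (GT/M2) or isoform 1 (GT/M1). On another 2 arrays, transduced cells also received small interfering RNA against Ep300, the gene of the acetyltransferase p300 (siEp300), or control siRNA (siCtrl). The labels of this pair disagree on the Mef2c form, since the titles name GT/M2 and the source names GT/M2TAD. The last array held untreated MEFs, which carried no virus, and no array carried virus without factors. Transduced cells were collected after 1 week, and no time is given for the MEF array. The labels of the transduced cells also give 24 h for medium replacement, with no such entry for MEF. Each group was 1 array, so there is no replicate spread, no test and no p-value, and every difference below is between single arrays. No label says whether cells came from 1 culture or several.

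Wnt proteins are lipid-modified secreted ligands. They bind the cysteine-rich domain of Frizzled receptors, with Lrp5 or Lrp6 as co-receptor in the branch that stabilises beta-catenin, or with Ror and Ryk receptors in branches that act on cell polarity and calcium. Sfrp proteins carry a Frizzled-like domain and bind Wnts outside the cell, and Dkk1, Dkk2 and Dkk4 bind Lrp5 and Lrp6. In heart development the pathway acts in phases, first promoting mesoderm and later limiting cardiac differentiation, while fibroblasts use it in matrix production and wound repair.

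Values are log2 signals as the authors normalised them, so 1 unit is a factor of 2. Background on an array was taken as the 95th percentile of its negative-control probes, which lay between 8.43 and 9.33. Between 23.7% and 29.6% of all named genes reached it. A gene is called 2-fold apart where the signals of 2 arrays differ by at least 1 and the higher one reaches the background of its array. Where the lower signal is under background, the fold is given as a lower bound against the background of that array. The levels of different genes are not compared, because probe sets differ in brightness.

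Most of the family lay under background. Of the 37 members, 28 were under it on every array, and 16 of these were also under the median of the negative-control probes on every array. The members above background on all 7 arrays were Fzd1, Fzd2, Fzd7, Sfrp1 and Dkk3. Fzd6 was above it on 6 arrays, Wnt5a on 3, Wnt16 on 2 and Fzd8 on 1. By each member's best margin over its arrays, Fzd8 was nearest above the limit, by 0.38 on siEp300, and Sfrp2 nearest below it, with a margin of -0.24 on MEF.

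**Figure D1:**
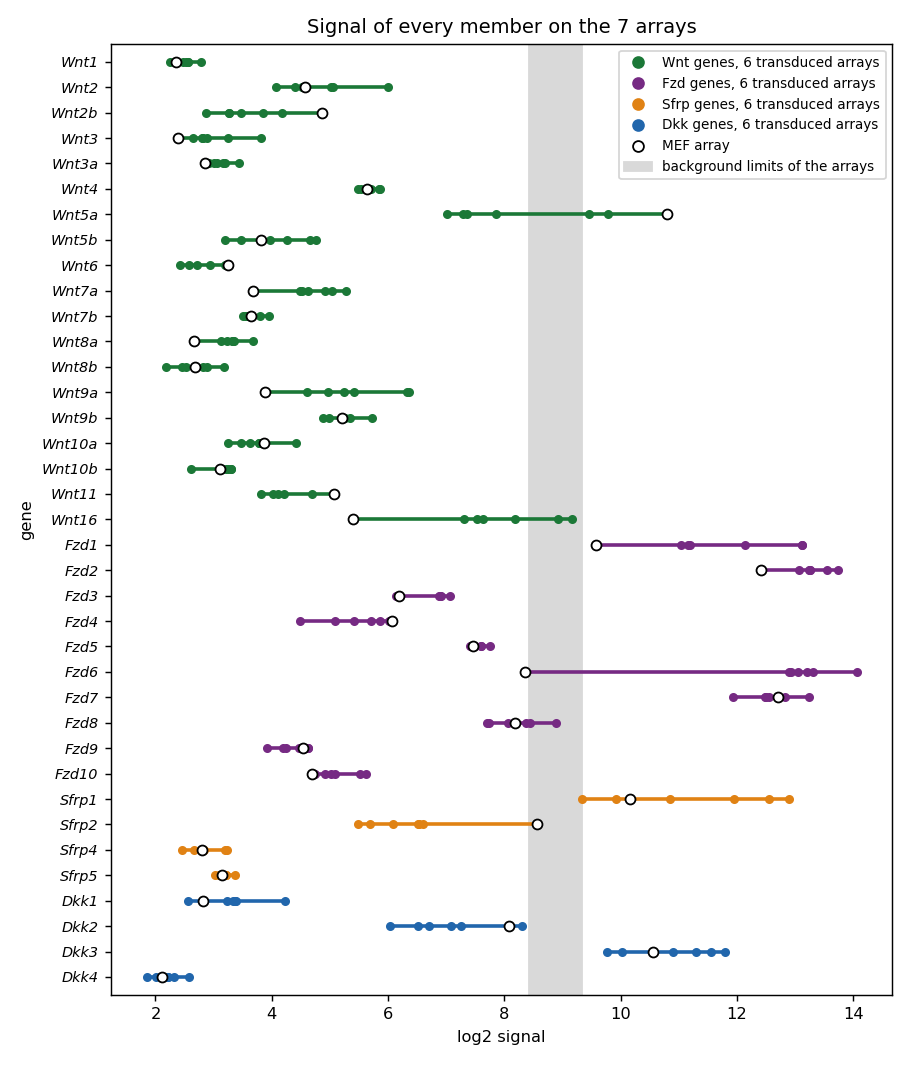
Log2 signal of each of the 37 members (rows) on the 7 arrays; filled points are the 6 transduced arrays, open circles the MEF array, lines span lowest to highest, and the grey band spans the background limits, 8.43 to 9.33. Most Wnt genes lie left of the band, and Fzd1, Fzd2, Fzd7, Sfrp1 and Dkk3 lie right of it on every array.

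The windows before the start sites of 3 of the members above background are shown, as RefSeq gives them on GRCm38.p6. They are Fzd1, which was higher on all 6 transduced arrays than on MEF, its close relative Fzd7, which was not 2-fold apart in any of the 11 comparisons made here with signals as deposited, and the ligand Wnt16. Each run holds the 250 bases before the start, 5′ to 3′ on the gene's strand. The windows are chr5:4758217-4758466 on the minus strand (Fzd1), chr1:59481897-59482146 on the plus strand (Fzd7) and chr6:22287977-22288226 on the plus strand (Wnt16). Capitals mark matches to the searched motifs.
Fzd1: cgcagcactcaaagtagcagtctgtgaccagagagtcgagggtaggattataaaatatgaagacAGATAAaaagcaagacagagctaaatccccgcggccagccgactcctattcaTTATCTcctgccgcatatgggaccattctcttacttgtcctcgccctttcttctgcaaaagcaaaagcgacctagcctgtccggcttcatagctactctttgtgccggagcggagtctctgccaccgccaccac
Fzd7: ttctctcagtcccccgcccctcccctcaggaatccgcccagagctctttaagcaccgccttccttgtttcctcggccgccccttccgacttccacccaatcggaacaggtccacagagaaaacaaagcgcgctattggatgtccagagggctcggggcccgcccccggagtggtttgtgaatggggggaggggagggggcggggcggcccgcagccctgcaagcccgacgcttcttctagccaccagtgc
Wnt16: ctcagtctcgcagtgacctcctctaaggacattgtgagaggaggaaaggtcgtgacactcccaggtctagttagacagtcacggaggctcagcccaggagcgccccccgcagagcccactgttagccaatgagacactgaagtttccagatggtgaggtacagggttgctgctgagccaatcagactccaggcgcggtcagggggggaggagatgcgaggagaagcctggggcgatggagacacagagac
The capitals in Fzd1 are both GATA motifs, AGATAA starting 186 bases and TTATCT starting 134 bases before the start, and Fzd7 and Wnt16 have no match.

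Motifs of the transduced factors and of the pathway's own TCF/LEF factors were searched on both strands in 28 such windows of 25 members. GATA motifs (AGATAA or TGATAA) were in 4 of the 28 windows, or 14.3%, against 14.0% of 19143 windows of all named genes. TCF/LEF motifs (CTTTGAT or CTTTGAA) were in 3 windows, or 10.7%, against 6.63%, and these belonged to Dkk1, Wnt11 and Wnt5b, all under background on every array. The T-box motif AGGTGT was in 2 windows, or 7.14%, against 10.9%. The MEF2 motif was in 0 windows, against 2.48%. A match describes the letters only.

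The labels were checked on the transduced genes and on cell markers. Mef2c lay between 18.32 and 18.87 and Tbx5 between 14.82 and 16.23 on the 6 transduced arrays, against 8.24 and 5.72 on MEF. Gata4 was under background on every array, at 3.57 to 5.09, and where its probes lie relative to the viral sequence is not known. Of 14 fibroblast markers, 10 were above background on MEF, with Col1a1 at 15.51 and Vim at 19.04, while Lum, Fap and Tcf21 were under it on every array. Of 13 cardiomyocyte markers, 7 or 8 were above background on each transduced array, against 1 on MEF. No macrophage marker of 10 was above background on any array, and of 8 endothelial markers only Kdr was, on MEF.

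Each transduced array was set against MEF to ask how the Wnt family differs in reprogrammed cells. The receptors Fzd6 and Fzd1 were higher and the ligand Wnt5a was lower on all 6 transduced arrays. These 6 comparisons share the MEF array and are not independent of each other. On GT/M2TAD 2 members were higher and 1 lower; among all genes 8.35% met the rule as higher and 6.4% as lower, 14.8% in either direction. On GT/M6 the counts were 4 and 1 (7.37% and 6.01% of all genes), on GT/M2 3 and 1 (8.18% and 5.48%) and on GT/M1 3 and 1 (6.53% and 6.42%). On siEp300 they were 5 and 1 (8.8% and 6.15%) and on siCtrl 3 and 1 (7.26% and 7.08%). The members' shares in either direction, 8.11% to 16.2%, lay near those of all genes, 13.0% to 14.9%. The median member differed from MEF by 0.088, 0.21, 0.07, 0.19, 0.14 and -0.023 on the same arrays in that order, against 0.091, 0.077, 0.072, 0.089, 0.12 and 0.012 for all genes. With arrays shifted to a common median, the median of all genes against MEF moved to between -0.25 and -0.059. The share of 2-fold genes that were higher was then 45.7% on GT/M2TAD, 39.6% on GT/M6, 45.6% on GT/M2 and 37.0% on GT/M1, against 56.6%, 55.1%, 59.9% and 50.4% as deposited. Fzd6, Fzd1 and Wnt5a kept their direction and stayed 2-fold apart in all 6 comparisons under each scaling tried.

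**Figure D2:**
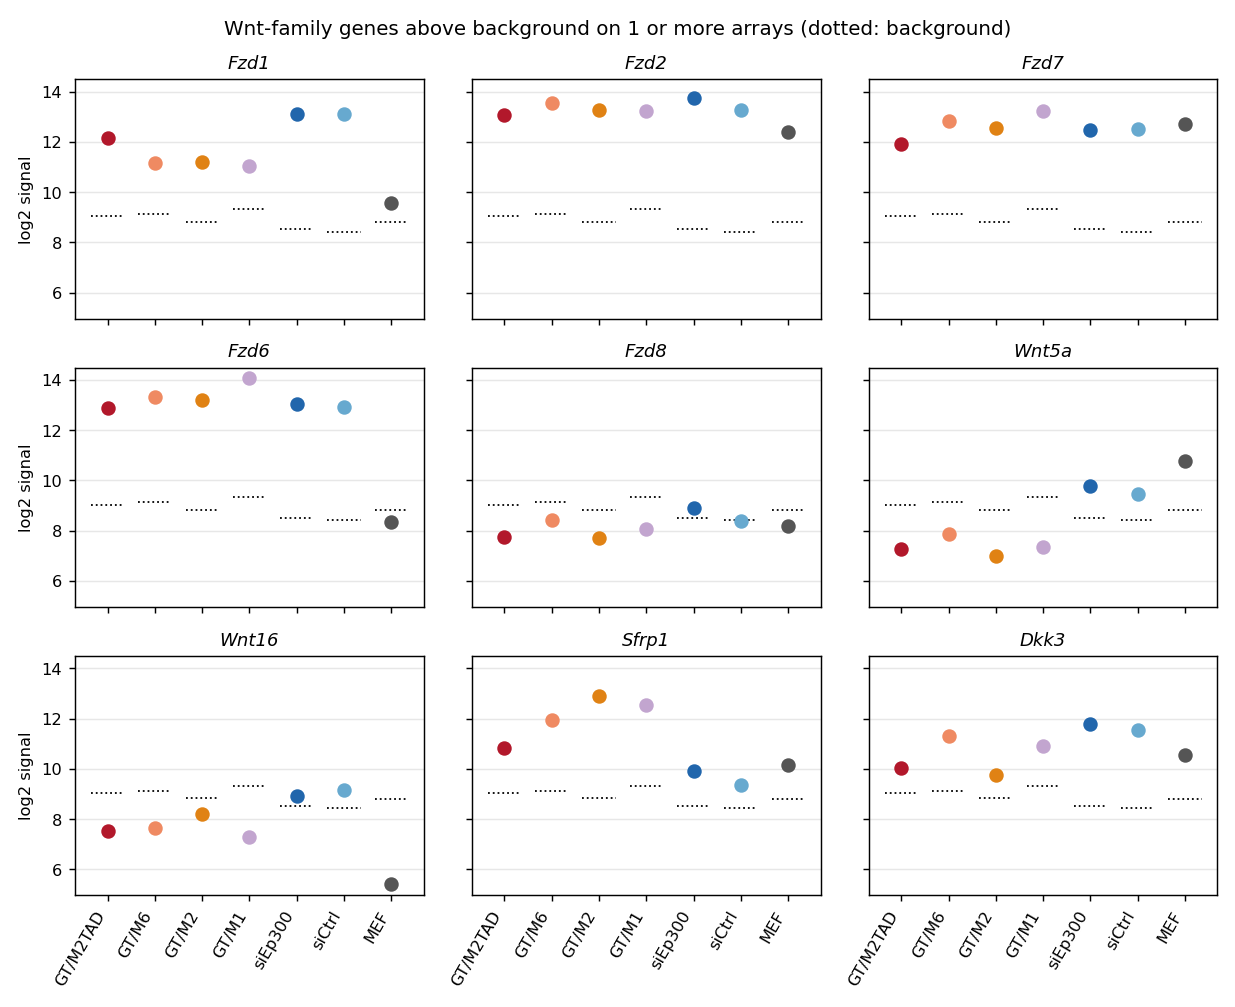
Log2 signal (vertical axes) of the 9 members above background on at least 1 array; each point is 1 array, and dotted lines mark that array's background. Fzd6 stands near 13 to 14 on the transduced arrays and at 8.35 on MEF, and Wnt5a is highest on MEF at 10.79.

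Fzd6, a receptor known in mice for orienting hair follicles through planar cell polarity, had the widest range of any member. Its signal was 12.89 on GT/M2TAD, 13.31 on GT/M6, 13.21 on GT/M2, 14.06 on GT/M1, 13.04 on siEp300 and 12.92 on siCtrl, against 8.35 on MEF. GT/M1 lay more than 1 unit above GT/M2TAD, siEp300 and siCtrl. All 6 transduced arrays were far above MEF, where the gene was under background. It was therefore at least 17.0-fold higher on GT/M2TAD, 22.6-fold on GT/M6, 21.1-fold on GT/M2, 38.1-fold on GT/M1, 18.8-fold on siEp300 and 17.3-fold on siCtrl than on MEF. Fzd3, its closest relative by sequence and also a polarity receptor, was under background on every array, between 6.13 and 7.06.

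Fzd1, Fzd2 and Fzd7 form a receptor subfamily of closely related sequence that can signal through beta-catenin. Fzd1 had signals of 12.14 on GT/M2TAD, 11.16 on GT/M6, 11.20 on GT/M2, 11.03 on GT/M1, 13.12 on siEp300 and 13.12 on siCtrl, against 9.58 on MEF. All transduced arrays were above MEF, the siRNA pair most and the 3 native isoforms least. The differences from MEF were 2.55 on GT/M2TAD, 1.58 on GT/M6, 1.62 on GT/M2, 1.45 on GT/M1, and 3.54 on both siEp300 and siCtrl, or 2.73-fold on GT/M1 and 11.7-fold on siEp300.

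Fzd2 had signals of 13.07 on GT/M2TAD, 13.55 on GT/M6, 13.25 on GT/M2, 13.24 on GT/M1, 13.74 on siEp300 and 13.26 on siCtrl, against 12.41 on MEF. It was above MEF on every transduced array by 0.66 to 1.33, and past 2-fold on GT/M6 at 1.14 and on siEp300 at 1.33. The GT/M6 difference fell under 2-fold, to 0.82, when arrays were shifted to a common median. Fzd7 had signals of 11.93 on GT/M2TAD, 12.83 on GT/M6, 12.55 on GT/M2, 13.24 on GT/M1, 12.48 on siEp300 and 12.50 on siCtrl, against 12.71 on MEF. Its transduced arrays lay on both sides of MEF, by -0.78 to 0.53, and none was 2-fold apart, although GT/M2TAD reached -1.04 with arrays shifted to a common median. The 3 related receptors thus had unlike patterns over the same arrays. Whether their probe sets cross-hybridise was not tested.

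The other receptors were low. Fzd5 and Fzd8 form another related pair. Fzd8 was 7.73 on GT/M2TAD, 8.45 on GT/M6, 7.70 on GT/M2, 8.06 on GT/M1, 8.89 on siEp300 and 8.37 on siCtrl, against 8.17 on MEF, and it passed background on siEp300 only. Fzd5 stayed between 7.41 and 7.75. Fzd4, Fzd9 and Fzd10, a further subfamily, were under background on all 7 arrays, with highest signals of 6.07, 4.63 and 5.62.

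Among the ligands, Wnt5a, the classic ligand of the branches that do not use beta-catenin, was lower on every transduced array. Its signal was 7.29 on GT/M2TAD, 7.85 on GT/M6, 7.01 on GT/M2, 7.35 on GT/M1, 9.78 on siEp300 and 9.46 on siCtrl, against 10.79 on MEF. The 4 arrays without siRNA were under background, while the siRNA pair stood between them and MEF. On MEF Wnt5a was at least 3.36-fold higher than on GT/M2TAD, 3.15-fold than on GT/M6, 3.91-fold than on GT/M2 and 2.74-fold than on GT/M1. The siRNA arrays differed from MEF by -1.01 on siEp300 and -1.33 on siCtrl.

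Fibroblasts make Wnt5a, and many fibroblast markers were lower on the 4 arrays without siRNA but not on the siRNA pair. Of 14 such markers, 1 was 2-fold higher than MEF and 7 lower on GT/M2TAD, 1 and 8 on GT/M6, 1 and 9 on GT/M2, 1 and 8 on GT/M1, 2 and 0 on siEp300, and 2 and 1 on siCtrl. The higher ones were Thy1 on GT/M2TAD, Dcn on the 3 native isoforms, and Dcn and Postn on both siRNA arrays. The log2 of their summed signal was 19.20 on GT/M2TAD, 19.12 on GT/M6, 19.11 on GT/M2, 19.26 on GT/M1, 19.65 on siEp300 and 19.93 on siCtrl, against 19.87 on MEF. Of 8 smooth muscle markers, 1 was higher and 5 lower on GT/M2TAD, 1 and 6 on GT/M6, 1 and 7 on GT/M2, 1 and 7 on GT/M1, 2 and 2 on siEp300, and 2 and 2 on siCtrl. Des was higher on all 6 transduced arrays, and Myh11 was higher on both siRNA arrays. With signals under background raised to it, the lower smooth muscle markers were 4 on GT/M2TAD, 4 on GT/M6, 5 on GT/M2 and 5 on GT/M1. Their other counts, and those of the fibroblast markers, were unchanged. Among all genes 6.53% to 8.8% were higher than MEF and 5.48% to 7.08% lower. After raising, 1044 to 1329 of 19505 named genes were higher and 871 to 1224 lower. All 9 cell cycle markers were lower on each of the 6 arrays. The part of these markers in the Wnt5a difference was not tested. In bulk RNA, fewer cells of a type and less RNA per cell cannot be told apart.

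Wnt16, a ligand best known for its part in cortical bone, ran the other way. Its signal was 7.54 on GT/M2TAD, 7.63 on GT/M6, 8.18 on GT/M2, 7.30 on GT/M1, 8.92 on siEp300 and 9.15 on siCtrl, against 5.40 on MEF. Every transduced array was above MEF, but the gene reached background only on the siRNA pair. Against MEF background it was at least 1.08-fold higher on siEp300 and 1.27-fold higher on siCtrl, so these bounds do not hold the 2-fold count.

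The remaining 17 Wnt genes were under background on every array, with signals from 2.19 to 6.35. They include Wnt1, Wnt3a and Wnt8a, ligands of the beta-catenin branch, and Wnt11, which acts in cardiac development. Of these 17, Wnt9a had the widest range, with 4.96 on GT/M2TAD, 5.42 on GT/M6, 4.60 on GT/M2, 5.25 on GT/M1, 6.33 on siEp300 and 6.35 on siCtrl, against 3.88 on MEF. By gene order the RefSeq table places 4 pairs of Wnt genes side by side: Wnt6 with Wnt10a, Wnt3a with Wnt9a, Wnt9b with Wnt3 and Wnt10b with Wnt1. Wnt3a, beside Wnt9a, stayed between 2.85 and 3.43. At these signals no difference can be read as a change in transcript.

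**Figure D3:**
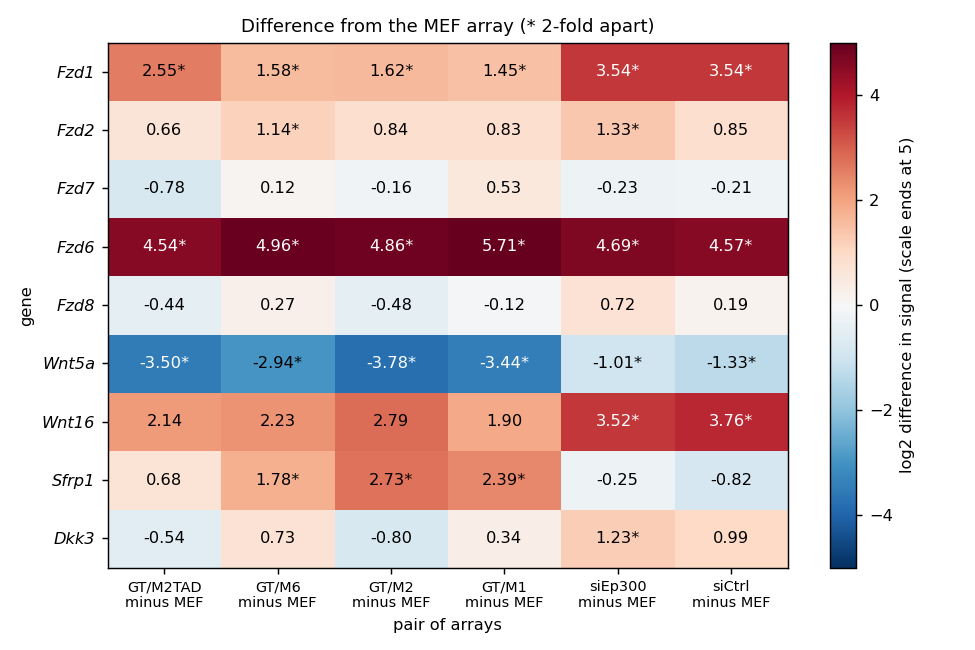
Difference in log2 signal between each transduced array and MEF (columns) for 9 members (rows), with values printed and stars on those 2-fold apart. Fzd6 and Fzd1 are positive and Wnt5a negative in all 6 columns, and Sfrp1 is positive in 4 and negative in the 2 siRNA columns.

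Of the secreted inhibitors, Sfrp1, which binds Wnts and can limit their access to Frizzled, differed among the transduced arrays. Its signal was 10.84 on GT/M2TAD, 11.94 on GT/M6, 12.89 on GT/M2, 12.55 on GT/M1, 9.91 on siEp300 and 9.34 on siCtrl, against 10.16 on MEF. The 3 native isoforms were high, GT/M2TAD was near MEF, and the siRNA pair lay under MEF. The differences from MEF were 1.78 on GT/M6, 2.73 on GT/M2 and 2.39 on GT/M1, or 3.44-fold, 6.63-fold and 5.26-fold. On GT/M2TAD, siEp300 and siCtrl they were 0.68, -0.25 and -0.82, under 2-fold.

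Sfrp2, a close relative of Sfrp1, was highest on MEF at 8.56, against 5.70 on GT/M2TAD, 6.53 on GT/M6, 6.52 on GT/M2, 6.08 on GT/M1, 6.59 on siEp300 and 5.49 on siCtrl. All 7 values were under background, so it was not counted. Sfrp4 and Sfrp5 lay between 2.45 and 3.37. Dkk2, an inhibitor that binds Lrp6, was also under background, at 6.04 on GT/M2TAD, 8.30 on GT/M6, 7.25 on GT/M2, 6.52 on GT/M1, 6.70 on siEp300 and 7.08 on siCtrl, against 8.08 on MEF. Dkk1 and Dkk4 did not exceed 4.23.

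Dkk3, a divergent Dickkopf whose role in Wnt signalling is less clear, had signals of 10.02 on GT/M2TAD, 11.29 on GT/M6, 9.76 on GT/M2, 10.90 on GT/M1, 11.79 on siEp300 and 11.55 on siCtrl, against 10.56 on MEF. Transduced arrays lay on both sides of MEF, with GT/M2 lowest and the siRNA pair highest. From MEF only siEp300 was 2-fold apart, at 1.23. The siEp300 difference fell just under 2-fold with arrays shifted to a common median. Under other scalings GT/M2 also passed 2-fold from MEF, at -1.12 with a common median, and siCtrl did at 1.01 with quantile normalization.

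GT/M2TAD was set against GT/M2, and the 3 native isoforms against one another, to see whether isoform or fusion goes with different Wnt family signals. GT/M2TAD was not set against GT/M1 or GT/M6 in the 11 comparisons. By the signals above, Fzd1, Fzd6, Fzd7 and Sfrp1 lay more than 1 unit apart between GT/M2TAD and GT/M1. Sfrp1 and Dkk3 did so between GT/M2TAD and GT/M6. The share of all genes was not computed for those pairs. Between GT/M2TAD and GT/M2, 0 members were higher and 1 was lower, against 1.97% and 1.86% of all genes. That member was Sfrp1, at 10.84 on GT/M2TAD and 12.89 on GT/M2, a difference of -2.05 or 4.13-fold. Against the mean of the 3 native isoforms, 12.46, the difference was -1.62. Fzd1 was 0.94 higher on GT/M2TAD than on GT/M2, under 2-fold, and 1.01 higher than that mean. Of 14 fibroblast markers, Pdgfrb, Thy1, Ddr2 and Postn were 2-fold higher on GT/M2TAD than on GT/M2, and Col3a1 and Dcn were lower. Smooth muscle markers were higher on GT/M2TAD than on GT/M2 for 3 of 8 members. Cell cycle markers were lower for 4 of 9, or for 3 with signals under background raised to it. The part of these markers in the member differences was not tested.

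Dkk3 was the member that set GT/M2 apart from the other isoforms. Between GT/M6 and GT/M2, 1 member was higher and 0 lower (0.897% and 0.918% of all genes, 1.81% in either direction), and Dkk3 was higher on GT/M6 by 1.53, or 2.89-fold. Between GT/M2 and GT/M1, 0 members were higher and 1 lower (0.984% and 0.636%), and Dkk3 was lower on GT/M2 with a difference of -1.14, or 2.21-fold. Between GT/M6 and GT/M1, 0 members were 2-fold apart in either direction, against 0.292% of all genes higher and 0.082% lower, 0.374% together. The comparisons among isoforms share arrays. Fzd6 and Fzd7 were highest on GT/M1, with Fzd6 differing by -0.75 on GT/M6 and -0.85 on GT/M2, both under 2-fold. Fibroblast markers were 2-fold higher on GT/M6 than on GT/M2 for 3 of 14 members, Col1a2, Pdgfrb and Postn. Pdgfrb was under background on GT/M2, and its bound of 1.41-fold does not hold the 2-fold count. Col1a2 and Dcn were lower on GT/M2 than on GT/M1. The part of these markers in the Dkk3 differences was not tested.

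**Figure D4:**
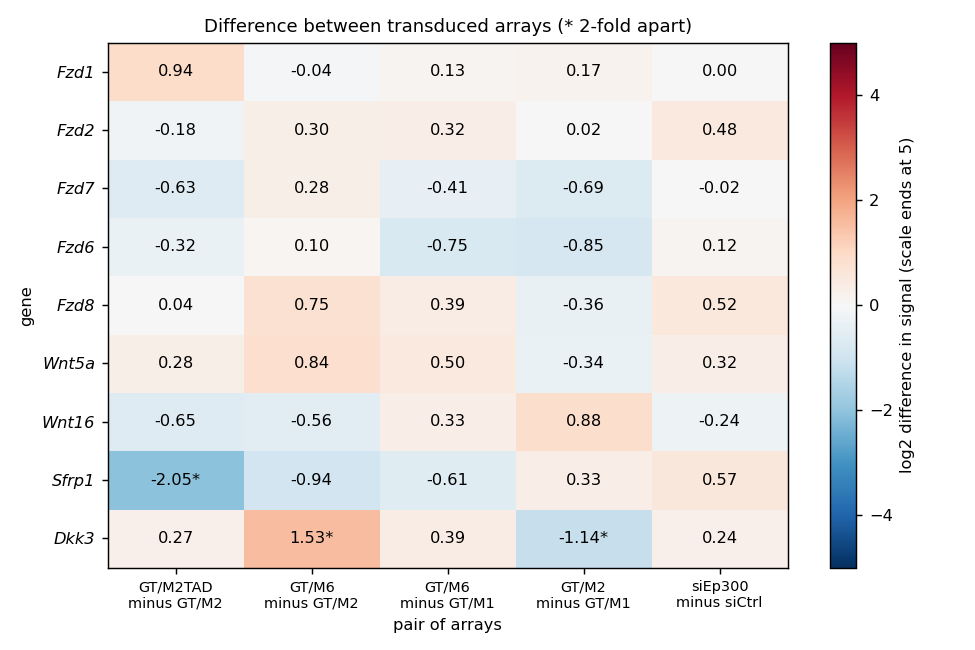
Difference in log2 signal between pairs of transduced arrays (columns) for 9 members (rows), with values printed and stars on those 2-fold apart. The stars are Sfrp1 between GT/M2TAD and GT/M2 and Dkk3 in both pairs that hold GT/M2 and another native isoform.

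siEp300 was set against siCtrl to ask which members differ with Ep300 siRNA. Ep300 itself was 9.47 on siEp300 and 9.90 on siCtrl, lower with its siRNA but under 2-fold apart. The p300 protein was not measured on these arrays. None of the 37 members was 2-fold apart, with 0 higher and 0 lower, against 0.6% and 0.0308% of all genes. Of all genes 2-fold apart, 95.1% were higher on siEp300 as deposited, against 74.6% with arrays shifted to a common median and 63.0% after quantile normalization. Of the 9 members above background somewhere, Sfrp1 differed by 0.57 (9.91 on siEp300, 9.34 on siCtrl), Fzd8 by 0.52 and Fzd2 by 0.48. Fzd1, Fzd6 and Fzd7 differed by 0.0015, 0.12 and -0.023. The median member was 0.16 higher on siEp300 and the median of all genes 0.14 higher. With 1 array each, smaller differences cannot be told from the spread between arrays.

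Both siRNA arrays stood apart from the arrays of either form named in their labels. Wnt5a was 2.49 higher on siEp300 and 2.17 higher on siCtrl than on GT/M2TAD, and 2.77 and 2.45 higher than on GT/M2. It was under background on GT/M2TAD and GT/M2, so these are at least 1.66-fold and 1.34-fold against GT/M2TAD, and 1.94-fold and 1.56-fold against GT/M2. Dkk3 was 1.77 and 1.53 higher than on GT/M2TAD, and 2.04 and 1.79 higher than on GT/M2. Sfrp1 differed by -0.93 on siEp300 and -1.50 on siCtrl from GT/M2TAD, and by -2.98 and -3.55 from GT/M2. With GT/M2TAD in place of siCtrl, 4 members were 2-fold apart from siEp300 (2.07% of all genes higher, 1.84% lower, 3.91% together), and with GT/M2 it was 5 (4.06% higher, 4.05% lower, 8.11% together). With signals under background raised to it, these counts were 1 (Dkk3) and 3 (Dkk3, Fzd1 and Sfrp1), beside 2.94% and 6.42% of all genes. For siCtrl the raised counts were 2 against GT/M2TAD (Dkk3 and Sfrp1) and 3 against GT/M2 (Dkk3, Fzd1 and Sfrp1), beside 3.99% and 8.04%. Tbx5 was 14.82 on siEp300 and 14.83 on siCtrl but 16.14 to 16.23 where no siRNA was given, so the siRNA pair also differs in a transduced factor. What part the siRNA procedure has in these differences was not tested.

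Other genes of the pathway were read from 5 lists. On the 6 transduced arrays 6.53% to 8.8% of all genes were 2-fold higher than MEF and 5.48% to 7.08% lower. Among genes above background on at least 1 array of the pair, 22.4% to 27.4% were higher and 17.5% to 22.5% lower. Both shares are to be read beside the counts of the 5 lists, since only genes above background can be called. On each array 16 to 20 of the 24 measured beta-catenin transducers were above background. Of 13 co-receptors and alternative receptors, 3 were higher than MEF and 1 lower on GT/M2TAD, 2 and 1 on GT/M6, 3 and 1 on GT/M2, 2 and 1 on GT/M1, 1 and 1 on siEp300, and 2 and 1 on siCtrl. Reck and Adgra2 act together in mice as a receptor complex for Wnt7 ligands, and they moved in opposite directions. Reck was 10.79 on GT/M2TAD, 12.07 on GT/M6, 10.38 on GT/M2, 11.88 on GT/M1, 10.47 on siEp300 and 10.56 on siCtrl, against 7.49 on MEF, or at least 2.97-fold higher on GT/M2, the smallest bound of the 6. Adgra2 was 9.55, 9.87, 9.03, 9.91, 10.09 and 10.26 on the same arrays in that order, against 12.15 on MEF. Wnt7a and Wnt7b were under background on all of them. Lrp6, the beta-catenin co-receptor, was higher on GT/M2TAD by 1.12, on GT/M6 by 1.27, on GT/M2 by 1.06 and on GT/M1 by 1.54. Lgr5, a receptor for R-spondins, was above background on GT/M2 alone, at 10.09, against 3.82 on MEF.

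Of 17 genes for Wnt secretion and other extracellular modulators, 3 were higher than MEF on GT/M2TAD, 5 on GT/M6, 4 on GT/M2, 4 on GT/M1, 6 on siEp300 and 5 on siCtrl, with 1 lower on each, where 6.53% to 8.8% of all genes were higher and 5.48% to 7.08% lower. Wls, the carrier that takes Wnts to the cell surface, was 15.49 on GT/M2TAD, 15.25 on GT/M6, 14.79 on GT/M2, 15.00 on GT/M1, 16.42 on siEp300 and 16.58 on siCtrl, against 13.52 on MEF. Rspo3, an R-spondin that raises Frizzled and Lrp6 at the cell surface, was 12.09 on GT/M2TAD, 9.71 on GT/M6, 10.49 on GT/M2, 8.53 on GT/M1, 12.81 on siEp300 and 12.87 on siCtrl, against 5.84 on MEF. Rspo3 was at least 9.76-fold higher than MEF on GT/M2TAD, 1.87-fold on GT/M6, 3.20-fold on GT/M2, 16.0-fold on siEp300 and 16.8-fold on siCtrl. The GT/M6 bound is under 2-fold, and on GT/M1 the gene stayed under background. Between GT/M2TAD and GT/M2 Rspo3 differed by 1.61. Gpc6, a glypican, was the lower member on each array, but it passed background only on MEF, at 8.85 against a limit of 8.81. With signals under background raised to it, 0 genes of this list were lower on any of the 6 arrays, against 871 to 1224 of 19505 named genes.

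**Figure D5:**
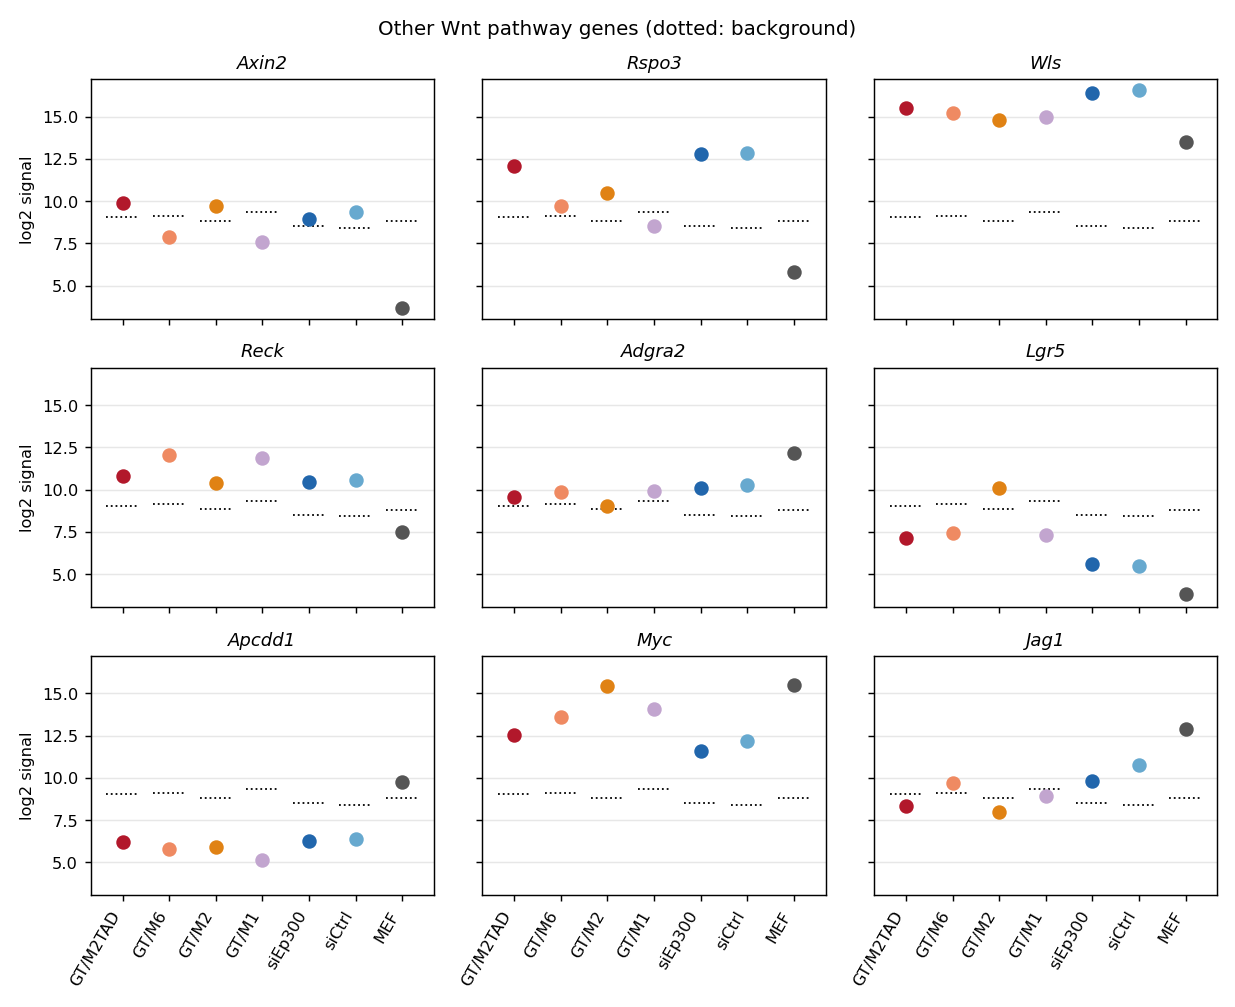
Log2 signal (vertical axes) of 9 other pathway genes; each point is 1 array, and dotted lines mark that array's background. Axin2, Rspo3, Wls and Reck are lowest on MEF, and Adgra2, Apcdd1, Myc and Jag1 are highest there.

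Of 21 measured target and feedback genes of beta-catenin signalling, 3 were higher than MEF and 5 lower on GT/M2TAD, 2 and 5 on GT/M6, 3 and 5 on GT/M2, 2 and 6 on GT/M1, 3 and 5 on siEp300, and 4 and 4 on siCtrl. Among all genes 6.53% to 8.8% were higher and 5.48% to 7.08% lower. With signals under background raised to it, the counts were 2 and 4 on GT/M2TAD, 0 and 4 on GT/M6, 0 and 4 on GT/M2, 0 and 5 on GT/M1, 1 and 5 on siEp300, and 1 and 4 on siCtrl. Of 19505 named genes, 1044 to 1329 were then higher and 871 to 1224 lower. Axin2, the feedback inhibitor most used as a readout of the branch, was 9.90 on GT/M2TAD, 7.91 on GT/M6, 9.74 on GT/M2, 7.59 on GT/M1, 8.96 on siEp300 and 9.36 on siCtrl, against 3.70 on MEF. It was above background on GT/M2TAD, GT/M2 and the siRNA pair, and at least 2.14-fold higher than MEF on GT/M2TAD, 1.91-fold on GT/M2, 1.11-fold on siEp300 and 1.47-fold on siCtrl. Only the GT/M2TAD bound holds the 2-fold count. Other targets ran the other way. Apcdd1, a membrane inhibitor of the pathway, was above background only on MEF, at 9.78, and lay between 5.15 and 6.36 on the transduced arrays. On MEF it was at least 1.67-fold higher than on GT/M2TAD, 1.57-fold than on GT/M6, 1.94-fold than on GT/M2 and 1.37-fold than on GT/M1. The bounds were 2.41-fold against siEp300 and 2.56-fold against siCtrl, and only those of the siRNA pair hold the 2-fold count.

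Myc was 12.56 on GT/M2TAD, 13.62 on GT/M6, 15.44 on GT/M2, 14.08 on GT/M1, 11.57 on siEp300 and 12.16 on siCtrl, against 15.53 on MEF. Jag1, a Notch ligand, was 8.37 on GT/M2TAD, 9.68 on GT/M6, 7.96 on GT/M2, 8.94 on GT/M1, 9.82 on siEp300 and 10.77 on siCtrl, against 12.92 on MEF. Fosl1 was 12.95 on MEF and lay between 8.08 and 8.89 on the transduced arrays. On MEF it was at least 12.2-fold higher than on GT/M1, the smallest of the 6. Vegfa was 2-fold lower than MEF on every transduced array except siCtrl. Myc and Jag1 respond to many pathways besides Wnt. With signals as deposited the list thus held 2-fold members on both sides. With signals under background raised to it, 0 were higher on GT/M6, GT/M2 and GT/M1. The list medians against MEF were all negative, from -0.71 on GT/M1 to -0.15 on siEp300.

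Of 24 measured transducers of the beta-catenin branch, 2 were higher and 1 lower than MEF on GT/M2TAD, 3 and 1 on GT/M6, 3 and 0 on GT/M2, 3 and 0 on GT/M1, 2 and 1 on siEp300, and 1 and 2 on siCtrl, with 6.53% to 8.8% of all genes higher and 5.48% to 7.08% lower. Tle3, a Groucho co-repressor, was 13.78 on GT/M2TAD, 14.31 on GT/M6, 14.22 on GT/M2 and 14.34 on GT/M1, against 12.63 on MEF. Tcf7l2, a TCF factor, was 12.38 on GT/M2TAD, 13.00 on GT/M6, 13.26 on GT/M2, 13.68 on GT/M1, 11.19 on siEp300 and 11.49 on siCtrl, against 12.66 on MEF. It was 2-fold higher than MEF on GT/M1 and 2-fold lower on the siRNA pair. Lef1 and Tcf7l1 were under background on every array.

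Of 24 measured polarity and calcium branch genes, 4 were higher and 1 lower than MEF on GT/M2TAD, 3 and 2 on GT/M6, 1 and 2 on GT/M2, 2 and 2 on GT/M1, 4 and 1 on siEp300, and 3 and 1 on siCtrl, beside the same 6.53% to 8.8% and 5.48% to 7.08% of all genes. With signals under background raised to it, they were 3 and 1 on GT/M2TAD, 1 and 2 on GT/M6, 1 and 2 on GT/M2, 1 and 2 on GT/M1, 2 and 1 on siEp300, and 2 and 1 on siCtrl. The raised signals gave 1044 to 1329 of 19505 named genes higher and 871 to 1224 lower. Between GT/M2TAD and GT/M2, 3 were higher and 0 lower, against 1.97% and 1.86% of all genes. These were Prickle2, a polarity protein, by 1.43, Daam2, a formin, by 1.41, and the kinase gene Camk2d by 1.17. Prickle2 was under background on GT/M2, and its bound of 1.51-fold does not hold the 2-fold count. Prkca, a protein kinase C gene, was lower than MEF on all 6 transduced arrays, at 9.72 on GT/M2TAD, 8.72 on GT/M6, 9.28 on GT/M2, 8.81 on GT/M1, 9.01 on siEp300 and 9.52 on siCtrl, against 11.11 on MEF. Between siEp300 and siCtrl, 0 genes of the 5 lists were 2-fold apart, as 0.631% of all genes were.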

How the data were processed

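RNA of 7 cell samples was measured on Clariom S mouse arrays. The authors deposited log2 signals made with Affymetrix Expression Console 1.4, per the submitters' processing notes, and the series text in the labels names SST-RMA; its settings and the genome build are not given in the sources used here. Among 28846 probe sets, 19572 carried 1 gene symbol, 0 carried several and 9274 carried none. All 19572 matched the RefSeq gene table of GRCm38.p6 by Entrez identifier. Where a gene had more than 1 probe set (55 genes, no member), the set with the highest mean was used. Negative controls were 5222 probes, and 1.78% to 3.41% of them were 2-fold apart by the same rule. The background limit was set on these same probes, so few of them could be called and the range is not a false-call rate. Their share exceeded that of all genes between siEp300 and siCtrl (3.24% against 0.631%) and between GT/M6 and GT/M1 (1.78% against 0.374%). It also did between GT/M2 and GT/M1 (2.51% against 1.62%) and between GT/M6 and GT/M2 (2.05% against 1.81%). It was lower between GT/M2TAD and GT/M2 (2.14% against 3.82%) and in all comparisons with MEF. The number of arrays limits precision.

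From these values log2 differences were computed for 11 pairs of arrays with Python 3.11.15 and pandas 2.3.3, with no model fitted. The rule was run on copies of the reference arrays, with known differences added to genes well above background and no noise. This checks the code only and says nothing of the spread between arrays. All members were accounted for, and those above background on at least 1 array are given on all 7. Alternatives changed the floor, the fold, the scaling, the probe set rule and the comparator. Members and lists were chosen with earlier results of these data known. Some listed genes, such as Ctnnb1 and Tcf7, are not analysed here.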

Additional observations from a re-analysis of the deposited data

How the results depend on the processing

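No paired analysis was possible because each group is 1 array. With the floor at the array median over genes, the members 2-fold apart from MEF were 6 on GT/M2TAD, 8 on GT/M6, 7 on GT/M1 and 8 on siCtrl. They were then 2 between GT/M2TAD and GT/M2, 3 between GT/M6 and GT/M2, 1 between GT/M6 and GT/M1 and 1 between siEp300 and siCtrl. With no floor they were 9 on GT/M2TAD, 11 on GT/M6, 9 on GT/M2, 10 on GT/M1, 12 on siEp300 and 9 on siCtrl against MEF. Among transduced arrays they were 3 between GT/M2TAD and GT/M2, 4 between GT/M6 and GT/M2, 1 between GT/M6 and GT/M1 and 3 between siEp300 and siCtrl. With a 1.5-fold limit they were 6 on GT/M2TAD and 7 on siCtrl against MEF, 3 between GT/M2TAD and GT/M2, 2 between GT/M6 and GT/M2, 2 between GT/M6 and GT/M1 and 3 between GT/M2 and GT/M1. The members added by a lower floor or none were under background on both arrays of the pair, where signals have no firm order.

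Against the mean of the native isoforms 2 members were 2-fold apart on GT/M2TAD, beside 336 of 19505 named genes higher and 208 lower. Between siEp300 and a transduced array without siRNA the count was 4 with GT/M2TAD and 5 with GT/M2 in place of siCtrl. Raising signals under background to it, chosen after seeing the data, removed Wnt16 from both siRNA comparisons with MEF. Of the differences of the 9 members above background in 11 pairs of arrays, 4 changed their side of the 2-fold limit under median centring, 2 under quantile normalization and 1 under level-dependent centring. No called difference changed its sign. Averaging probe sets could not change a member count, because each member has 1 probe set. Between siEp300 and siCtrl, 0.631% of all genes were 2-fold apart, against 0.323% under median centring, 0.277% after quantile normalization, 0.292% under level-dependent centring and 0.344% with raised signals. With the floor at the array median it was 2.32%, with no floor 5.53% and at 1.5-fold 4.8%. The same 3 settings gave 6.3%, 7.7% and 9.44% between GT/M2TAD and GT/M2, 3.56%, 4.54% and 5.49% between GT/M6 and GT/M2, 0.938%, 1.82% and 1.64% between GT/M6 and GT/M1, and 3.29%, 4.55% and 5.4% between GT/M2 and GT/M1. Against MEF they were 21.8% to 23.5% with the median floor and 24.6% to 26.6% with no floor. At 1.5-fold, 2218 of 19505 named genes were higher than MEF and 1813 lower on GT/M2TAD. On siCtrl 2002 were higher and 1988 lower. Raised signals gave 0.236% between GT/M6 and GT/M1 and 1.05% between GT/M2 and GT/M1. The share of 2-fold genes that were higher between GT/M2 and GT/M1 was 60.8% as deposited and 49.1% after quantile normalization. The cause of these shifts was not tested.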
